A study of Homo sapiens with 3 samples.

Results

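The metallothionein genes of PC3 cells were examined together with the zinc sensor MTF1 and the zinc exporter SLC30A1 after knockdown of USP16. The members were fixed by name: MT2A, MT1X, MT1E, MT1F, MT1G and MT1M, plus MTF1 and SLC30A1. All 8 were found among the 59719 gene names of the deposited table, and 5 of them (MT2A, MT1X, MT1F, MTF1 and SLC30A1) had a mean of at least 1 TPM, the level that 13637 names reached. PC3 is an androgen-independent human prostate cancer cell line. RNA-seq covered 1 library of PC3 cells that stably carry the control shCON, 1 with the hairpin shUSP16#1 and 1 with the hairpin shUSP16#2. The authors call shCON a vector control, and its values are labelled RFP. All 3 lines were selected with puromycin after delivery in the pLKO.1 vector. Whether these lines are clones or pools is not stated. Each condition had 1 library, so no difference below has a replicate check, no p-value is given, and both hairpins are set against the same shCON library.

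Metallothioneins are small, cysteine-rich proteins that bind zinc, copper and cadmium, and thereby buffer free zinc in the cell. When zinc rises, MTF1 binds it through its zinc fingers, enters the nucleus and binds metal response elements in the promoters of metallothionein genes and of SLC30A1, which encodes the transporter that carries zinc out across the plasma membrane. Normal prostate epithelium stores unusually high levels of zinc, a trait that prostate cancer cells lose.

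The promoters are shown because they hold the elements through which these genes are switched on by zinc. Each line gives the 250 bases before the RefSeq start of the gene, 5′ to 3′ on the strand of the gene, from the promoter table for GRCh38.p14. RefSeq starts differ from the gene ends in GENCODE release 29 that are given further on, so the MT2A window lies inside the GENCODE gene and the SLC30A1 window lies apart from it. Capitals mark the core of the metal response element, searched on both strands as TGCACNC and TGCGCNC. The windows are chr16:56608334-56608583 (forward strand) for MT2A, chr16:56682220-56682469 (forward) for MT1X, chr16:56669564-56669813 (forward) for MT1H, a relative that was listed at 0 TPM, and chr1:211579162-211579411 (reverse) for SLC30A1.
MT2A: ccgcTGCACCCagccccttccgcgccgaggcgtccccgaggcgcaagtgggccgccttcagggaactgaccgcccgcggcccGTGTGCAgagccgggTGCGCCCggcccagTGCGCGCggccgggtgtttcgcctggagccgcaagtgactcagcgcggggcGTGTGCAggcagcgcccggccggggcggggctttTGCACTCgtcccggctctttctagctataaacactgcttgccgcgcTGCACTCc
MT1X: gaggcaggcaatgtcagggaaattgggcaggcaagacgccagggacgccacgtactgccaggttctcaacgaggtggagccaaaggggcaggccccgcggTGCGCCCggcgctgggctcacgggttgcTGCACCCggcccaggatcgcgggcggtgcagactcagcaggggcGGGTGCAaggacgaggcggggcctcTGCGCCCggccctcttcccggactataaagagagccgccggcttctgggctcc
MT1H: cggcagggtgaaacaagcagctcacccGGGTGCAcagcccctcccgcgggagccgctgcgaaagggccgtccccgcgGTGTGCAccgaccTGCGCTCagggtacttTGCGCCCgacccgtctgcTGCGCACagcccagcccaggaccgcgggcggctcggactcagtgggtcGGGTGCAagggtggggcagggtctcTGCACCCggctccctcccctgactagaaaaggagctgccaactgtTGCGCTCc
SLC30A1: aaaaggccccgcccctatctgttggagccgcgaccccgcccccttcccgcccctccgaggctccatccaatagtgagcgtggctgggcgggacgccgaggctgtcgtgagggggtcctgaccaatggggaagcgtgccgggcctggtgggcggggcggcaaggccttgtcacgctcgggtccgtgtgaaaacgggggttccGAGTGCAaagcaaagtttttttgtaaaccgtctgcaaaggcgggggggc

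The MT2A window held 7 cores, spread over the whole window. MT1X held 4, MT1H held 8 and SLC30A1 held 1. No core was in the window of MTF1, whose own product binds them. No 2 cores overlapped in these windows. Of 35116 promoters of the same length, 24.8% held at least 1 core, 0.370% at least 4 and 0.0313% at least 7. In shCON the 4 members with a promoter in the table stood in the same order by cores and by TPM, from MT2A to MTF1. The other metallothionein genes with a promoter there did not keep to this order. MT1H, with 8 cores, and MT1B and MT4, with 3 each, were listed at 0 in every library. A match is a description of letters and does not show binding.

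**Figure D1:**
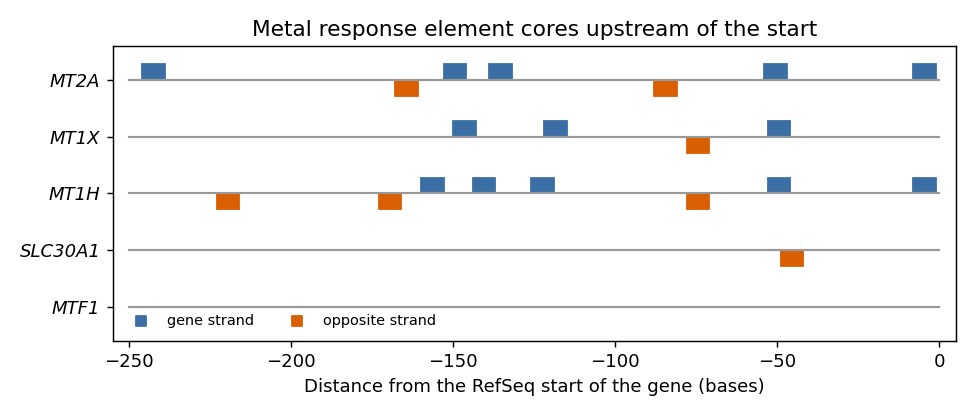
Positions of the metal response element cores (boxes) in the 250 bases before the RefSeq start of 5 genes, with distance from the start in bases on the horizontal axis. Boxes above a line lie on the strand of the gene and boxes below it on the opposite strand. MT2A held 7 cores, MT1X 4, MT1H 8, SLC30A1 1 and MTF1 0.

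USP16 was checked first, because it is the gene the hairpins target. It was at 19.9 TPM in shCON, against 3.5 TPM with shUSP16#1 and 1.08 TPM with shUSP16#2, so the remaining level was lower with shUSP16#2. TPM is a level per transcript length, scaled to the same sum in each library. KRT8 and KRT18, keratins of simple epithelium, were between 622 and 947 TPM in every library, while KLK3 and KLK2, kallikreins of the secretory prostate epithelium, were listed at 0 in all 3 libraries. PTPRC and CD3E, the defining markers of leukocytes and T cells, were at most 0.14 TPM. Of 7 markers of leukocytes, endothelium and stroma, 3 reached the minimum, and the 7 summed to between 40.3 and 49.6 TPM, mostly CD68 at 31.7 to 42.2 TPM. COL1A1, a collagen of fibroblasts, was at 4.19, 10.7 and 4.78 TPM, highest in the library where MT2A was lowest, and its part in the result was not tested. Over the 13637 tested genes the median log2 change came to -0.17 with shUSP16#1 and -0.37 with shUSP16#2, so a gene that moved with the rest of the library already had these values.

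MT2A, the most widely expressed metallothionein of human cells, carried nearly all of the signal of the family. It was at 5839 TPM in shCON, against 2892 TPM with shUSP16#1 and 3944 TPM with shUSP16#2. The control library was highest, and the library with the stronger USP16 knockdown lay between the other libraries. MT2A was 2.02-fold lower under shUSP16#1 and 1.48-fold lower under shUSP16#2. It ranked 15th of all names by TPM in shCON, 58th under shUSP16#1 and 42nd under shUSP16#2. In bulk RNA, fewer cells that express a gene and less RNA per cell cannot be told apart.

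On the log2(TPM + 1) scale, on which a change is the value under a hairpin minus that in shCON, MT2A differed by -1.01 and -0.57. After subtracting the tested-gene medians, the differences were -0.84 and -0.20. Under shUSP16#1, 5.6% of all tested genes had a more negative change than MT2A, against 39.6% under shUSP16#2. Among the 137 other protein-coding genes that averaged 1000 TPM or more, 1 (NPM1, a nucleolar chaperone) had a more negative change under shUSP16#1 and 9 did under shUSP16#2, while the medians of these abundant genes were 0.18 and 0.16. MT2A (ENSG00000125148) lies on chromosome 16 from 56608199 to 56609497, forward strand, in GENCODE release 29 (GRCh38).

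MT1X, an inducible metallothionein of the same cluster, was at 241 TPM in shCON, against 191 TPM with shUSP16#1 and 162 TPM with shUSP16#2. Its order followed the remaining USP16 level, unlike that of MT2A. The log2 changes were -0.33 and -0.57, which is -0.16 and -0.20 after subtracting the tested-gene medians, and 38.7% and 39.6% of tested genes had more negative changes. MT1F, a further member of the MT1 group, was at 12.9, 11.6 and 9.6 TPM in the same order. Its log2 changes of -0.14 and -0.39 were 0.03 and -0.02 after that subtraction. MT1F was thus near the median of all tested genes, before GC content and length are considered, and its direction depends on that scaling.

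The ratio between MT2A and MT1X separated the hairpins. MT2A was 24.3 times the TPM of MT1X in shCON, 15.2 times under shUSP16#1 and again 24.3 times under shUSP16#2. Under shUSP16#2 the log2 change of both genes was -0.57, whereas under shUSP16#1 MT2A was further below shCON than MT1X. The TPM of MT1X was 18.7 times that of MT1F in shCON, 16.4 times under shUSP16#1 and 16.9 times under shUSP16#2, a narrower range. With 1 library per hairpin, a difference between hairpins and a difference between libraries cannot be told apart.

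**Figure D2:**
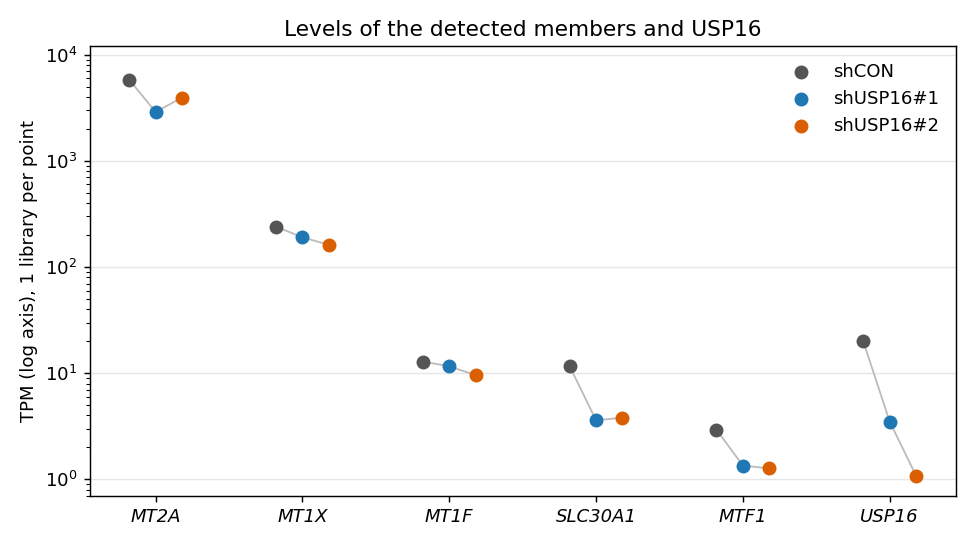
TPM on a log axis of the 5 tested members and of USP16, 1 point per library. MT2A was lowest under shUSP16#1 (2892 TPM) and MT1X and MT1F were lowest under shUSP16#2 (162 and 9.6 TPM), while SLC30A1 was near 3.6 to 3.82 TPM under both hairpins against 11.7 TPM in shCON.

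The remaining metallothionein members MT1E, MT1G and MT1M were listed at 0 in all 3 libraries. So were MT1A, MT1B, MT1H, the brain-enriched MT3 and the squamous-epithelial MT4, and the 9 metallothionein pseudogenes and pseudogene-like genes in the table (MT1CP, MT1DP, MT1HL1, MT1JP, MT1L, MT1P1, MT1P3, MT1XP1 and MT2P1). Of the 11 functional genes, 3 were thus detected. Metallothionein transcripts resemble one another, and how reads that fit several copies were assigned is not given in the sources used here, so the split between copies is uncertain. Of the windows of 50 bases in the annotated transcripts of each gene, 92.9% of those in MT1E, 83.5% in MT1G and 90.1% in MT1M occur in transcripts of no other gene. The shares were 97.0% for MT2A, 81.7% for MT1X and 98.8% for MT1F. Windows were pooled over all annotated transcripts, 1971 of them for MT1F with its listed length of 425 bases. The shares therefore need not hold for the main transcript of a gene. Only exact matches were counted, so a near-identical window counted as unique. Whether read assignment had a part in the values listed at 0 was not tested.

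The family was also summed, because reads could be split between its copies. The sum of TPM is itself not free of such a split, since the copies differ in length. The 6 metallothionein members summed to 6093 TPM in shCON, against 3094 TPM with shUSP16#1 and 4116 TPM with shUSP16#2, which is 0.609%, 0.309% and 0.412% of all TPM. MT2A made up 95.8%, 93.5% and 95.8% of these sums. The log2 changes of the sum were -0.98 and -0.57, which is -0.81 and -0.20 after subtracting the tested-gene medians. Without MT2A the sum was 253 TPM in shCON, against 202 TPM with shUSP16#1 and 172 TPM with shUSP16#2, with log2 changes of -0.32 and -0.56.

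**Figure D3:**
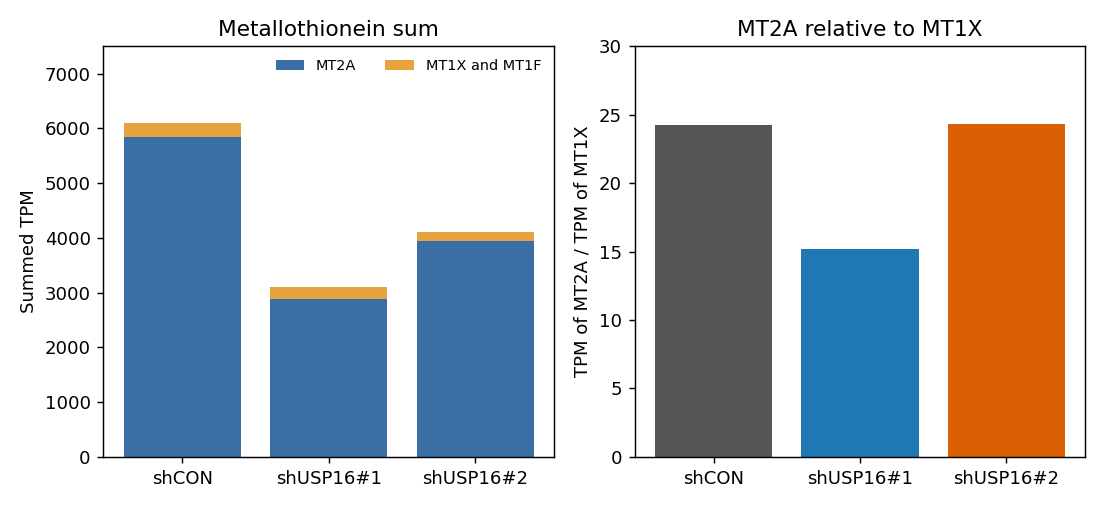
Left, summed TPM of the metallothionein members in each library, with MT2A in blue and MT1X plus MT1F in orange; right, the TPM of MT2A divided by that of MT1X. The sums were 6093, 3094 and 4116 TPM, and the ratio was 15.2 under shUSP16#1 against 24.3 in both other libraries.

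On the deposited values, before any trend was removed, SLC30A1 showed the largest difference of the members. It encodes ZnT1, the zinc exporter of the plasma membrane. SLC30A1 was at 11.7 TPM in shCON, against 3.6 TPM with shUSP16#1 and 3.82 TPM with shUSP16#2. Both knockdown libraries lay close together and 3.24-fold and 3.06-fold below the control. The log2 changes were -1.46 and -1.40, which is -1.29 and -1.03 after subtracting the tested-gene medians, and 1.28% and 7.2% of tested genes had more negative changes. SLC30A1 (ENSG00000170385) lies on chromosome 1 from 211571568 to 211578742, reverse strand.

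MTF1, the zinc-sensing transcription factor, was at 2.94 TPM in shCON, against 1.35 TPM with shUSP16#1 and 1.27 TPM with shUSP16#2. The hairpin libraries again lay close together, 2.18-fold and 2.31-fold below the control. The log2(TPM + 1) scale understates differences of such low levels and gave -0.75 and -0.80, which is -0.57 and -0.43 after subtracting the tested-gene medians. MTF1 (ENSG00000188786) lies on chromosome 1 from 37809567 to 37859620, reverse strand.

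Of the 5 tested members, SLC30A1 was the only one at least 2-fold lower under both hairpins on the log2(TPM + 1) scale, where 4.6% of all tested genes were. No member was at least 2-fold higher under both, as 1.14% of all tested genes were. Under shUSP16#1 alone, MT2A and SLC30A1 passed this threshold (5.79% of all tested genes), and under shUSP16#2 alone SLC30A1 did (19.5%). All 5 were lower than shCON under both hairpins, as were 57.2% of all tested genes. With a pseudocount of 0.1 in place of 1, MTF1 also passed the threshold under both hairpins.

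**Figure D4:**
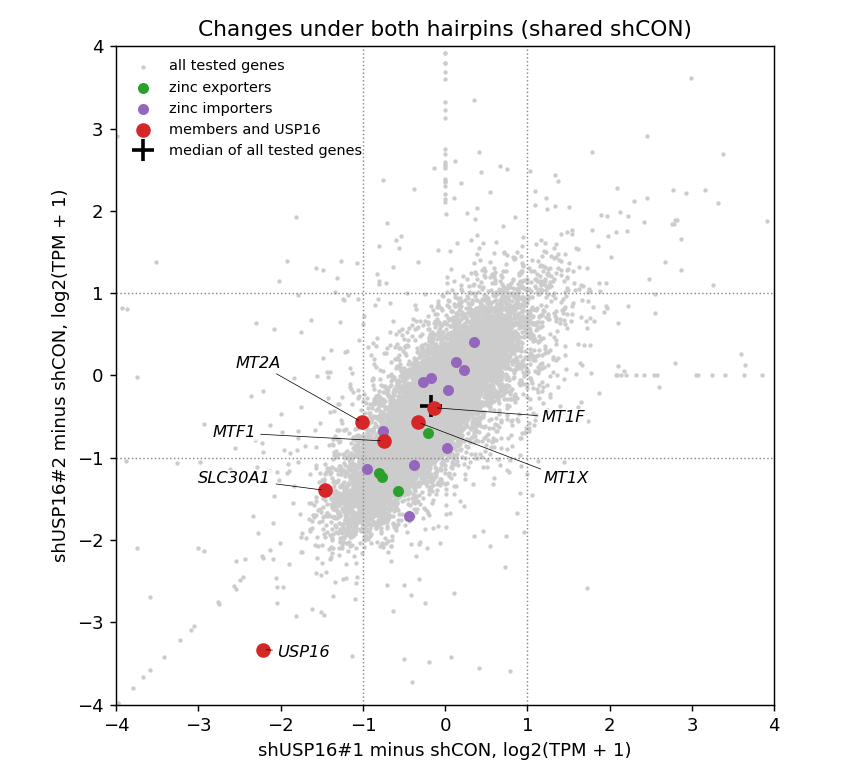
Difference from shCON on the log2(TPM + 1) scale under shUSP16#1 (horizontal) and shUSP16#2 (vertical). Grey points are the tested genes (100 lie beyond 4 units and are not drawn), green and purple points zinc exporters and importers, red points the detected members and USP16, and the cross the median of all tested genes. Dotted lines mark a 2-fold difference, and SLC30A1 is the member beyond both lower lines. Both axes share the shCON library.

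Changes in these libraries followed the GC content and length of transcripts, and the members differ in both. MT2A, MT1X and MT1F are short (581, 404 and 425 bases as listed in the table) with transcript GC contents of 54.2%, 52.5% and 55.0%. SLC30A1 is long (5893 bases) and poor in GC (37.98%), and MTF1 spans 7937 bases at 46.9% GC. The 266 tested genes in the same GC bin as MT2A (53.9% to 54.5%, 1 of 50 bins) had median log2 changes of -0.10 and -0.22, and the 208 protein-coding genes of 300 to 600 bases had medians of 0.09 and -0.02. MT2A was lower than both of these companions under both hairpins. The 266 genes in the GC bin of MT1F (54.5% to 55.1%) had medians of -0.03 and -0.10. MT1F, at -0.14 and -0.39, was lower than these and than the genes of 300 to 600 bases. The 266 genes in the GC bin of SLC30A1 (37.3% to 38.3%) had medians of -0.58 and -1.07, and the 2079 protein-coding genes of 5000 to 10000 bases had medians of -0.44 and -0.75. The difference of SLC30A1 from its GC companions was therefore smaller under shUSP16#2 than under shUSP16#1.

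With the GC trend removed, the log2 changes became -1.09 and -0.73 for MT2A, -0.44 and -0.69 for MT1X, -0.28 and -0.66 for MT1F, -0.51 and -0.54 for MTF1, and -1.06 and -0.70 for SLC30A1. The metallothioneins thus moved away from 0 and SLC30A1 and MTF1 moved towards it, and no member was at least 2-fold lower under both hairpins. The removal adds back the overall median, so a gene that follows the trend stands near -0.17 and -0.37 rather than at 0. With trends of both length and GC content removed, MT2A stood at -1.28 and -0.93 and SLC30A1 at -0.94 and -0.55. The order of MT2A and SLC30A1 therefore depends on this correction, and their direction does not.

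**Figure D5:**
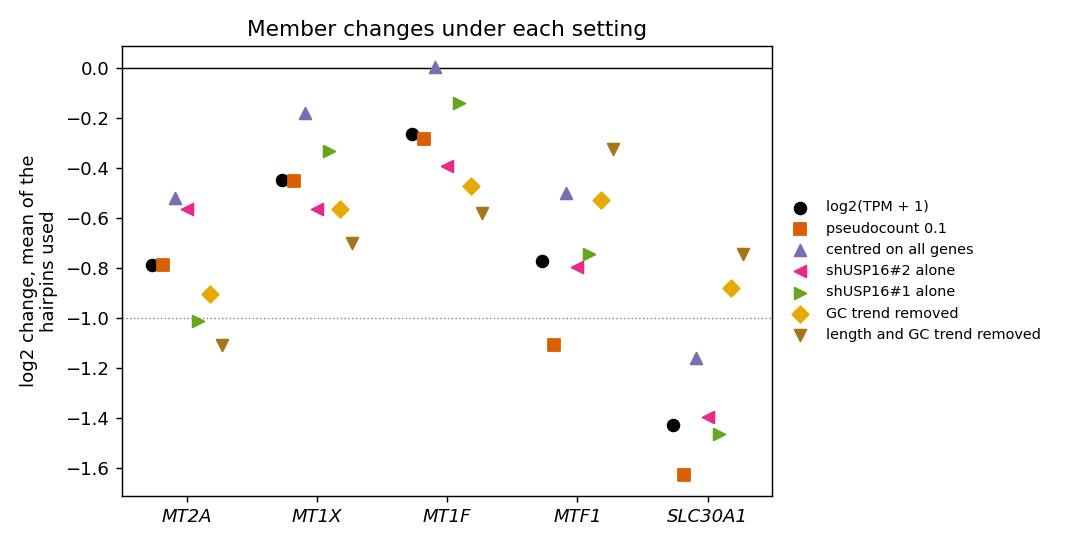
Mean log2 change of both hairpins (or the single hairpin named) for the 5 detected members under 7 settings, with 0 as a solid line and a 2-fold lower level as a dotted line. MT2A ranged from -1.11 to -0.52 and SLC30A1 from -1.63 to -0.74; MT1F reached 0 when centred on all genes.

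The metallothionein genes are arranged as a cluster on chromosome 16, from 56565049 to 56684196. The 9 other tested genes within 500 kb of it had median log2 changes of -0.05 and -0.18, which is 0.12 and 0.19 after subtracting the tested-gene medians. Of the 9, 0 were at least 2-fold changed in either direction under both hairpins. Among all tested genes 4.6% were lower and 1.14% higher by that rule, and 0 of 9 cannot be told apart from these shares. The most negative was OGFOD1, a ribosomal prolyl hydroxylase, at 44.8, 28.1 and 22.3 TPM. The most positive was NLRC5, an activator of MHC class I genes, at 0.99, 1.16 and 2.57 TPM. Of the 9, 5 were below shCON under both hairpins and 3 above it, against 57.2% and 24.5% of all tested genes. Under shUSP16#2 the change of OGFOD1 (-0.97) was more negative than that of MT2A (-0.57).

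The guide strand of each hairpin was compared with the members, since short guides can bind other transcripts through bases 2 to 8. The longest protein-coding transcripts of MT2A, MT1X, MT1F, MTF1 and SLC30A1 held 0 matches to this seed for either hairpin. Among 11350 tested genes with such a transcript, 27.8% held a match for shUSP16#1 and 24.1% for shUSP16#2. No match says only that these letters are not in the transcripts searched.

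The zinc exporters of the SLC30 family, SLC30A1 among them, move zinc out of the cytosol. Of 10 family members 5 were tested and all 5 were below shCON under both hairpins, as 57.2% of all tested genes were. SLC30A1 was the 1 exporter at least 2-fold lower under both (4.6% of all tested genes), and 4 exporters, again with SLC30A1, were at least 2-fold lower under shUSP16#2 (19.5%). Over these 5 the median log2 changes were -0.77 and -1.23, which is -0.60 and -0.86 after subtracting the tested-gene medians. SLC30A6, a subunit of a transporter of the Golgi, was at 13.0, 7.03 and 5.17 TPM. SLC30A5, its partner, was the most abundant at 24.3, 20.9 and 14.6 TPM. The transcripts of this family are poor in GC, at a median of 38.9% against 50.4% for all tested genes. Once the GC trend was taken out, the exporter medians were -0.34 and -0.46. These values still contain the tested-gene medians of -0.17 and -0.37, so they are not on the scale of -0.60 and -0.86. The exporters lay below those tested-gene medians, by less under shUSP16#2 than under shUSP16#1. SLC30A2, SLC30A8 and SLC30A10 were listed at 0 in every library.

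The zinc importers of the SLC39 family carry zinc into the cytosol. Of 14 members 11 were tested. Of these, 6 were below shCON under both hairpins and 3 above it, near the 57.2% and 24.5% of all tested genes. None was at least 2-fold changed under both, where 4.6% of all tested genes were lower and 1.14% higher. The median log2 changes were -0.18 and -0.18, which is -0.01 and 0.19 after subtracting the tested-gene medians. The order of both families depends on the correction. As the mean of both hairpins, the medians were -0.996 for exporters and -0.17 for importers on the deposited values, -0.41 and -0.42 with the GC trend removed, and -0.30 and -0.62 with the length and GC trend removed. SLC39A4, the zinc importer whose loss causes acrodermatitis enteropathica, was the most abundant zinc transporter gene of all, at 365 TPM in shCON, against 303 TPM with shUSP16#1 and 345 TPM with shUSP16#2. SLC39A1, the ubiquitous importer, was at 144, 169 and 150 TPM. SLC39A8, which also carries manganese and cadmium, showed the most negative mean, at 26.2, 19.03 and 7.31 TPM. SLC39A13 showed the most positive, at 18.8, 24.1 and 25.2 TPM. Summed TPM was 961, 862 and 849 for the importers and 62.9, 40.1 and 28.2 for the exporters.

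Genes of copper handling, the other physiological metal bound by metallothioneins, had medians of -0.23 and -0.36, near the medians of all tested genes. Of 14 tested, 8 were below shCON under both hairpins and 4 above it, near the 57.2% and 24.5% of all tested genes. None was at least 2-fold changed under both, where 4.6% of all tested genes were lower and 1.14% higher. SOD1, the copper and zinc superoxide dismutase, was at 445, 317 and 374 TPM, and ATOX1, a copper chaperone, at 421, 405 and 431 TPM. COX11, which delivers copper to cytochrome c oxidase, was the most negative, at 85.9, 58.6 and 44.6 TPM. STEAP4, a metalloreductase, was the most positive, at 1.09, 3.22 and 1.41 TPM.

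Transcription factors and a coactivator that act on metallothionein promoters were mostly lower. Of 9 listed, 8 were tested, MTF1 among them, and 7 of these were below shCON under both hairpins, as were 57.2% of all tested genes. The medians were -0.76 and -0.95, which is -0.59 and -0.58 after subtracting the tested-gene medians. With the GC trend removed the regulator medians were -0.40 and -0.78, where all tested genes stand near -0.17 and -0.37. EP300, a histone acetyltransferase and coactivator of MTF1, was the gene at least 2-fold lower under both (4.6% of all tested genes), at 12.9, 4.85 and 3.77 TPM. USF2, a basic helix-loop-helix factor, was the one above shCON under both (24.5% of all tested genes), at 59.3, 65.9 and 64.2 TPM. Its partner USF1 was at 49.8, 46.2 and 47.7 TPM. STAT3 was listed at 0, 0 and 0.01 TPM, and PC3 is known to lack this gene.

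Glucocorticoids induce MT2A and MT1X through the receptor NR3C1, which was at 5.11 TPM in shCON, against 2.19 TPM with shUSP16#1 and 1.86 TPM with shUSP16#2. Of 8 tested glucocorticoid-responsive genes, 2 were at least 2-fold lower under both hairpins and 5 were above shCON under both, against 4.6% and 24.5% of all tested genes. The first were FKBP5, a co-chaperone of the receptor, at 14.0, 4.7 and 5.89 TPM, and SGK1, a kinase, at 22.8, 10.5 and 7.06 TPM. The medians of 0.27 and 0.03 were not on the side of these genes. With the GC trend removed they were -0.01 and -0.21. These still lay above the -0.17 and -0.37 of all tested genes, which the removal leaves in.

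Genes that cells induce under metal and oxidative stress had medians of -0.62 and -0.61, which is -0.45 and -0.25 after subtracting the tested-gene medians. As the mean of both hairpins the median was -0.62, and -0.25 when genes under 5 TPM were left out. Of 11 tested, 8 were below shCON under both hairpins and 2 above, against 57.2% and 24.5% of all tested genes. After subtracting the tested-gene medians, 6 were lower under both, as 41.7% of all tested genes were, and 4 higher. GCLM, the regulatory subunit of the enzyme that starts glutathione synthesis, was at least 2-fold lower under both (4.6% of all tested genes). It was at 7.8, 3.24 and 2.86 TPM. HMOX1, the heme oxygenase that cadmium strongly induces, went the other way, at 7.07, 12.6 and 15.7 TPM. HSPA1A, the inducible heat shock protein that heavy metals also raise, was nearly level at 62.3, 65.1 and 62.2 TPM.

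The protein-coding genes whose pair of changes lay nearest to that of MT2A, by Euclidean distance on the log2 scale over both contrasts, were GTF2E1, CHMP4A, DERL1, CHCHD7 and GPR160, at distances of 0.03 to 0.11. GTF2E1, a subunit of the general transcription factor TFIIE, was at 17.3, 8.12 and 11.1 TPM. CHMP4A, of the ESCRT-III complex, was at 53.3, 26.9 and 37.0 TPM. Because they were picked for this closeness, these genes were by construction, like MT2A, lowest under shUSP16#1 and between the other libraries under shUSP16#2. None of the 5 was a zinc transporter or a metallothionein.

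The number of metal response element cores was also set against the changes of all tested genes with a promoter in the table. The 6313 genes with no core had median log2 changes of -0.20 and -0.40, the 2274 with 1 core had medians of -0.23 and -0.43, and the 48 with at least 4 cores had medians of -0.07 and -0.24. These groups hold 0, exactly 1 and 4 or more cores and do not overlap.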

How the data were processed

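RNA-seq covered 3 libraries of PC3 cells, 1 for each of shCON, shUSP16#1 and shUSP16#2. Libraries were made from total RNA with an Illumina TruSeq kit and sequenced by Majorbio. The submitters' processing notes name CASAVA, HISAT2 and hg19, and the quantification tool and annotation are not given in the sources used here. The authors deposited gene expression as TPM with 2 decimals for 60930 entries, obtained on the Majorbio Cloud Platform. The 3 columns that repeat others were not used. Since TPM keeps no depth, sequencing depth is unknown here and no counting interval is given.

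Entries repeating a name were left out (1211, keeping the highest), and 13637 names averaging 1 TPM or more were tested. Changes were log2(TPM + 1) under a hairpin minus shCON. With 1 library per condition there was no test across samples, and called means at least 2-fold. The table holds no coordinates, and positions are from GENCODE release 29 (58516 identifiers matched). GC content was the median over the transcripts of a gene, and to remove its trend the median change was subtracted in 50 bins of GC content, or in 10 by 10 bins of length and GC content, and adding back the overall median. Promoters were taken from the RefSeq table for 4 members (MT2A, MT1X, MTF1 and SLC30A1) and for MT1B, MT1H and MT4.

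The members and lists were chosen with earlier results of these data known. Named genes were the members, the other metallothionein genes, in each list the genes at least 2-fold changed under both hairpins or else the 2 highest and the largest change each way, and the 5 genes nearest to MT2A. KRT8, KRT18, KLK2, KLK3, PTPRC, CD3E, CD68 and COL1A1 were given as markers, other markers are not reported here, and NPM1, STAT3, NR3C1, USF1, USF2, HMOX1, HSPA1A, SLC30A5 and SLC30A6 lie outside it and were picked with their values in view, as were the searches for seeds, windows and promoter elements. The alternatives were another pseudocount, centring, other minimums, each hairpin alone, removal of the trends, protein-coding genes only and other members of the sum. The log2 change, the 2-fold count and the removal of a GC trend were tested on simulated data. The removal of the length and GC trend and the sequence searches were not. Python 3.11.15, numpy 2.4.6, pandas 2.3.3 and matplotlib 3.10.9 were used.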

Additional observations from a re-analysis of the deposited data

How the results depend on the processing

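No paired analysis was possible because shCON, shUSP16#1 and shUSP16#2 comprised 1 library each. Values are means of both hairpins on the log2 scale, and a move means more than 0.20, the median SD between the 2 hairpins over all tested genes. MT2A, MT1X, MTF1 and SLC30A1 kept their sign under every alternative run for them (MT1X from -0.70 to -0.18, MTF1 from -1.11 to -0.32). That sign is relative to 0, and removal of a trend adds back a negative overall median. With the length and GC trend removed, MTF1 was at -0.36 under shUSP16#1, below the tested-gene median of -0.17. Under shUSP16#2 it was at -0.28, above the median of -0.37. MT1F was -0.27 and turned to 0.0044 when centred on all tested genes. The cause of these moves was not tested, apart from settings that by construction change the genes or libraries used. TPM hides the depth, so how far counting error reaches in MTF1 or SLC30A1 is unknown.

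The metallothionein sum was -0.77, -0.50 when centred, -1.09 with the length and GC trend removed and -0.44 without MT2A, and it lay between -0.98 and -0.57 with each hairpin alone. Adding the other metallothionein genes and pseudogenes left it at -0.77. The count of members lower by 2-fold or more under both hairpins, 1 in the report, was 2 at a pseudocount of 0.1, 0 with the GC trend removed and 0 with the length and GC trend removed. In a single hairpin 1 to 2 members passed, 2 of them (MT2A and SLC30A1) without shUSP16#2.

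Centring moved the median of zinc exporters from -0.996 to -0.73, of zinc importers from -0.17 to 0.095, of copper genes from -0.28 to -0.0092, of regulators of metallothionein genes from -0.89 to -0.62, of glucocorticoid-responsive genes from 0.21 to 0.48, of metal stress genes from -0.62 to -0.35 and of cluster neighbours from -0.12 to 0.15. With the GC trend removed, exporters were at -0.41, importers at -0.42, regulators at -0.60 and glucocorticoid-responsive genes at -0.083. With the length and GC trend removed these were -0.30, -0.62, -0.45 and -0.085, and neighbours were at 0.027. Both removals add back the overall median, and all tested genes had a median of -0.27 as the mean of both hairpins. A pseudocount of 0.1 gave -1.12 for regulators, and a minimum of 5 TPM gave -0.25 for metal stress genes. With each hairpin alone the exporters ranged from -1.23 to -0.77.

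The background counts moved too. The 627 genes lower by 2-fold or more under both hairpins numbered 273 after centring, 273 after removal of the GC trend, 269 after removal of the length and GC trend and 1095 at the pseudocount of 0.1. Either hairpin alone gave 789 to 2659. The 155 higher numbered 341 after centring, 99 and 84 after removal of the same trends, 96 at the 5 TPM minimum, 84 among protein-coding genes and 287 at the pseudocount of 0.1. Either hairpin alone gave 382 to 386.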
